A study of Mus musculus with 6 samples.

Results

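Gldn, Shc2, Rasal1, Ly6d, Gucy2c, Sdk2, Myo5c and Pydc4 are 8 of the 18260 genes in a count table of mouse liver tumour hepatocytes, and 8 of the 14552 genes with enough counts to be tested. They were selected on the values of that table: a level under about 0.5 CPM (counts scaled to a common library size) with the Ripply1 gene floxed and a clearly higher level with it deleted. The difference that chose them is therefore given here as a description, with no test. The limit held for 7 of the 8. Pydc4 had a mean of 1.32 CPM in the floxed group, so it was low rather than near-silent.

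RNA was sequenced from hepatocytes isolated out of liver tumours of male mice, with 3 libraries in each of 2 groups. Ripply1 F/F mice carry loxP sites around the first exons of Ripply1, which encodes a transcriptional co-repressor that works with T-box factors. Ripply1 ΔHep mice carry the same floxed alleles together with Alb-Cre, a recombinase driven by the albumin promoter, which is active in hepatocytes. Mice of both groups were 6 weeks old at a single injection of the carcinogen diethylnitrosamine (DEN), dosed at 90 μg per g. An interval of 3 weeks without treatment followed, and both groups then received 0.05% phenobarbital (PB), a tumour promoter, in the diet for 27 weeks. The controls therefore also carry DEN/PB tumours, and no untreated liver was analysed here. No label says that the replicates were separate animals, so p-values measure the spread between these libraries only.

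Libraries held 27772849 to 35894395 counts, so 1 CPM corresponded to 26.7 to 37.9 counts. Ripply1 itself had 13, 8 and 12 counts in F/F and 1, 1 and 2 in ΔHep, in the direction of the labels. Hepatocyte markers, among them Alb, Apoa1 and Ttr, summed to 124141 to 132400 CPM in the F/F libraries and 117740 to 141128 CPM in ΔHep. Of all tested genes, 220 (1.51%) were called higher and 24 (0.165%) lower in ΔHep at an adjusted p under 0.05 in edgeR. A further description counts genes whose 3 ΔHep libraries all lay above all 3 F/F libraries, which applied to 15.3% of tested genes. All 8 genes met both criteria, which is given as a description. That number called was 0 without F/F 1, 0 without F/F 2, 2 without ΔHep 2, 1 without ΔHep 3 and 1 with limma-voom, and it was 8 without F/F 3 and with DESeq2. In bulk RNA, fewer cells of a type and less RNA per cell cannot be told apart, and the same holds for more of either.

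These genes do unrelated jobs and are known from different tissues. Gliomedin (Gldn) is secreted by myelinating Schwann cells and gathers sodium channels at nodes of Ranvier through neurofascin and NrCAM, while sidekick-2 (Sdk2) is a homophilic adhesion molecule of retinal synapses. Shc2 is a phosphotyrosine adaptor best known from neurons that links receptor tyrosine kinases to Ras, and Rasal1 is a calcium-sensitive GTPase-activating protein that turns Ras off. Ly6d is a GPI-anchored surface protein that marks B-lineage precursors and stratified epithelium, and Gucy2c is the guanylin receptor of the intestinal epithelium, which makes cyclic GMP. Myo5c is a class V myosin of glandular epithelia that moves secretory vesicles, and Pydc4 belongs to the interferon-inducible PYHIN genes, several of which sense DNA in myeloid cells.

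Promoter windows, running from 250 bases before to 50 bases after the annotated start, were found in RefSeq (GRCm38.p6) for 5 of the 8 genes: Gldn, Shc2, Sdk2, Myo5c and Pydc4. No window was matched for Rasal1, Ly6d or Gucy2c. Gldn and Shc2 are printed because they had the highest fold differences of the 8, and Pydc4 because it alone of the 5 has a CpG-poor window. All are 5′ to 3′ on the strand of the gene, in lower case, with matches to the searched motifs in capitals. The capitals mark an AP-1 letter pattern in Gldn, nothing in Shc2, and, in order, a TCF/LEF, a TATA and an interferon-stimulated element pattern in Pydc4. Gldn covers chr9:54286236-54286535 (plus strand), Shc2 covers chr10:79637869-79638168 (minus strand) and Pydc4 covers chr1:173599223-173599522 (minus strand).
Gldn: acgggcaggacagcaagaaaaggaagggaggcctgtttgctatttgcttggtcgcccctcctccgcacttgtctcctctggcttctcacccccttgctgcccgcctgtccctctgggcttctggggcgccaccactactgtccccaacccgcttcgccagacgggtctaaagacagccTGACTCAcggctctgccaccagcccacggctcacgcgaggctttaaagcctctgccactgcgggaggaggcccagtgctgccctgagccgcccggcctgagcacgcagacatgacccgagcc
Shc2: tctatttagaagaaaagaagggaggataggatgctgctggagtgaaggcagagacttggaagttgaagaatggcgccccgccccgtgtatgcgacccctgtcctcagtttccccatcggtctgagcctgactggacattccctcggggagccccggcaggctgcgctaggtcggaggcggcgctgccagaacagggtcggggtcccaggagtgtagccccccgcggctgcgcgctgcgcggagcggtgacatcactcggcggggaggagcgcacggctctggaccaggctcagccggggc
Pydc4: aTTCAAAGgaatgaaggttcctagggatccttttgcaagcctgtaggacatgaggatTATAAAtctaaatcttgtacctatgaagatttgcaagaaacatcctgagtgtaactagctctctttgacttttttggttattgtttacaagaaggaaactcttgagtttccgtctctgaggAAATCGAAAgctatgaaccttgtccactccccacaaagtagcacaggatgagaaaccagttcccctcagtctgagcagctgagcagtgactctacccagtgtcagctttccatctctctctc

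The windows differed widely in base composition. Pydc4 had 42.7% G or C and 2 CpG, against medians of 52.7% and 7 over all 32851 RefSeq windows of this length. Gldn had 65.0% and 17 CpG, Shc2 65.7% and 24, Sdk2 76.7% and 41, and Myo5c 56.3% and 15. The letters TGANTCA of AP-1, which read the same on both strands, stood 72 bases before the start of Gldn and occur in 7.81% of all windows. In Pydc4, AAANNGAAA of the interferon-stimulated element stood 72 bases before the start (10.6% of all windows), TATAAA 193 bases before it (13.6%) and CTTTGAA of TCF/LEF 249 bases before it on the opposite strand (5.14%). TATAAA also stood 236 bases before the start of Myo5c. The letters AGGTGTGA of a T-box half-site (1.28% of all windows) and CTTTGAT (3.73%) occurred in none of the 5. Both strands were searched for each pattern, and a match describes letters only.

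Gldn, the secreted node organiser, had the largest fold difference of all genes called higher in ΔHep. The gene lies on the plus strand at chr9:54286486-54341786 and overlaps the antisense gene Gldnos, so without strand information reads of the pair cannot be told apart. Its level was 0.375, 0.218 and 0.143 CPM in F/F 1 to 3 and 8.92, 24.2 and 22.5 CPM in ΔHep 1 to 3. ΔHep 1 was the low library of its group, yet it stood 23.8-fold above the highest F/F library. The group means were 0.246 ± 0.118 and 18.6 ± 8.40 CPM (SD, n = 3), a log2 change of 6.23 (SE 0.51). The ratio of counts pooled by group, each divided by its TMM-scaled library totals, was 77.0, with an exact binomial interval of 50.2 to 125 at 95% that covers counting error only.

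Sdk2, the synaptic adhesion molecule, lies at chr11:113776374-114067046 on the minus strand. It had 0.262, 0.249 and 0.681 CPM in the F/F libraries and 2.43, 4.74 and 2.61 CPM in ΔHep. F/F 3 and ΔHep 2 were the high libraries, and the groups did not overlap. Means were 0.398 ± 0.246 and 3.26 ± 1.29 CPM (SD, n = 3), and the log2 fold change was 3.03 (SE 0.49). Without F/F 3 it was 3.64.

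Shc2, the Ras-activating adaptor, lies at chr10:79618051-79637918 on the minus strand and overlaps the antisense RNA gene Gm47163, so reads of this pair cannot be told apart either. It was covered by 2, 1 and 1 counts in F/F and by 49, 116 and 209 in ΔHep. Those counts correspond to 0.0750, 0.0312 and 0.0359 CPM in the F/F libraries and to 1.45, 3.55 and 5.52 CPM in ΔHep. The F/F libraries were at a handful of counts, the groups were far apart, and ΔHep 1 was again lowest. The log2 fold change was 6.13 (SE 0.70), and the ratio of pooled counts was 77.7, with a wide counting interval of 30.1 to 287.

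Rasal1, which acts on Ras in the opposite direction, lies at chr5:120648812-120679597 on the plus strand. It had 1, 2 and 1 counts in F/F and 21, 38 and 46 in ΔHep. Its levels were 0.0375, 0.0623 and 0.0359 CPM against 0.622, 1.16 and 1.21 CPM. Even the ΔHep mean was only 1.00 ± 0.328 CPM (SD, n = 3), but its lowest library was 9.98-fold above the highest F/F library. The log2 fold change was 4.33 (SE 0.60).

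Ly6d, the surface protein of B-lineage precursors and stratified epithelium, is a short gene at chr15:74762056-74763620 on the minus strand. It had 0.900, 0.187 and 0.251 CPM in the F/F libraries and 3.26, 10.8 and 11.1 CPM in ΔHep. F/F 1 alone was above 0.5 CPM, and ΔHep 1 was 3.62-fold above it. Means were 0.446 ± 0.394 and 8.38 ± 4.44 CPM (SD, n = 3), a log2 change of 4.26 (SE 0.66). It was 5.25 without F/F 1 and 3.86 without F/F 2.

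Gucy2c, the guanylin receptor, lies at chr6:136697284-136781765 on the minus strand. It had 7, 2 and 5 counts in F/F and 24, 91 and 156 in ΔHep, or 0.262, 0.0623 and 0.179 CPM against 0.711, 2.79 and 4.12 CPM. ΔHep libraries differed 5.79-fold among themselves, the widest range of the 8 genes. The lowest of them was 2.71-fold above the highest F/F library, and the log2 fold change was 3.92 (SE 0.75). It ranged from 3.38 without ΔHep 3 to 4.39 without F/F 1.

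Myo5c, the motor of glandular epithelia, lies at chr9:75232020-75305451 on the plus strand. It had 3, 7 and 1 counts in F/F and 48, 40 and 27 in ΔHep, or 0.112, 0.218 and 0.0359 CPM against 1.42, 1.22 and 0.713 CPM. Unlike most of the other genes, it was highest in ΔHep 1. Means were 0.122 ± 0.0916 and 1.12 ± 0.366 CPM (SD, n = 3), with a log2 change of 3.12 (SE 0.61) that was 3.85 without F/F 2 and 2.70 without F/F 3.

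Pydc4, the PYHIN gene, lies at chr1:173566283-173599274 on the minus strand. RefSeq now calls it Ifi213. It had 34, 41 and 39 counts in F/F and 318, 116 and 272 in ΔHep, or 1.27, 1.28 and 1.40 CPM against 9.42, 3.55 and 7.18 CPM. F/F libraries were almost alike and ΔHep 2 was the low library of its group, at 2.54-fold the highest F/F library. The means were 1.32 ± 0.0705 and 6.72 ± 2.96 CPM (SD, n = 3), and the log2 change of 2.35 (SE 0.36) was the smallest of the 8. PYHIN genes are near-identical neighbours, so the assignment of reads among them is uncertain.

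**Figure D1:**
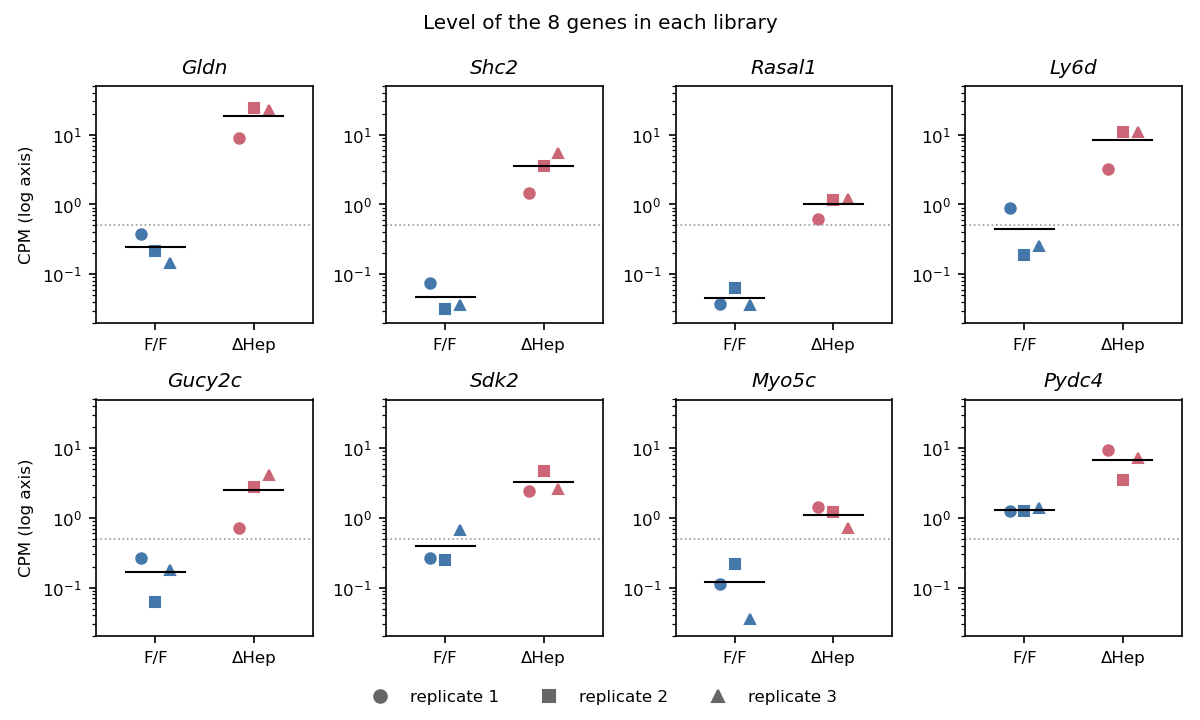
Level of each of the 8 genes in CPM (log axis) in the 3 F/F and 3 ΔHep libraries, 1 point a library. No ΔHep point falls among the F/F points of the same gene, from a 23.8-fold gap between the nearest libraries for Gldn to 2.54-fold for Pydc4.

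Over all tested genes the median log2 fold change was -0.01, and over these 8 it was 4.09, as follows from how they were chosen. The count filter kept a gene only if enough libraries passed about 0.314 CPM. Gldn, Ly6d and Sdk2 passed that level in 1 F/F library each, Shc2, Rasal1, Gucy2c and Myo5c in 0, and Pydc4 in 3, while all 8 passed it in all 3 ΔHep libraries. All of the 8 except Pydc4 were therefore kept only because of their ΔHep levels. Of 1275 tested genes under 0.5 CPM in the F/F mean, 45 were called higher with groups that did not overlap. Just under the limit stood Mmp12 (0.467 CPM) and Slamf7 (0.470 CPM), and just over it Bub1b (0.558 CPM), Cdc20 (0.563 CPM) and Glipr1 (0.591 CPM). Ranked by log2 fold change among the 220 genes called higher, Gldn came first, Shc2 came next, and Pydc4, the last of the 8, stood at rank 51.

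**Figure D2:**
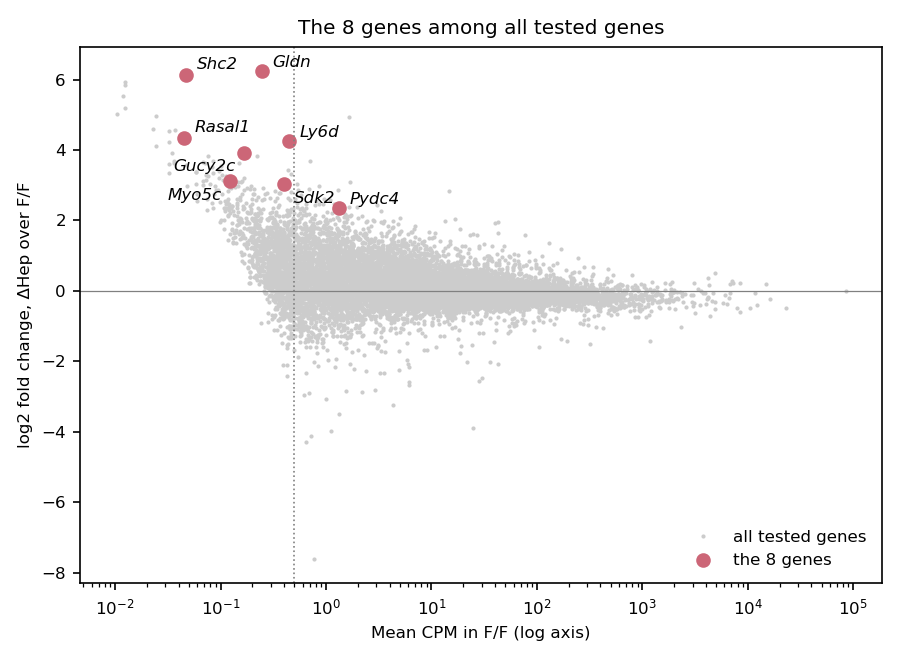
Log2 fold change of ΔHep over F/F against the mean F/F level in CPM (log axis) for every tested gene, with the 8 genes named. Gldn and Shc2 stand at the top with 6.23 and 6.13, and Pydc4 stands to the right of the 0.5 CPM line.

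Levels of different genes can be compared only per length. In ΔHep, Ly6d reached 11.3 ± 5.97 CPM per kb of exon and Gldn 3.99 ± 1.80 (SD, n = 3). Next came Pydc4 at 0.982 ± 0.433, Shc2 at 0.646 ± 0.375, Gucy2c at 0.641 ± 0.434, Rasal1 at 0.283 ± 0.0928, Sdk2 at 0.211 ± 0.0832 and Myo5c at 0.115 ± 0.0377 CPM per kb. Most neighbours in this order overlap within 1 SD, namely Ly6d and Gldn, Pydc4 and Shc2, Shc2 and Gucy2c, Gucy2c and Rasal1, Rasal1 and Sdk2, and Sdk2 and Myo5c, so their order is not resolved. Gldn and Pydc4 do not overlap in this way. Among 12698 tested genes with a length, ranked by CPM per kb, the mean level of Ly6d stood at percentile 20.8 in F/F and 78.5 in ΔHep, and that of Gldn at 2.56 and 55.1. Ly6d was therefore not among the lowest genes of F/F once its short length was counted. The other 6 genes stood lower in ΔHep, with Pydc4 at percentile 24.5, Shc2 at 18.1, Gucy2c at 18.0, Rasal1 at 9.23, Sdk2 at 6.88 and Myo5c at 3.07.

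The ΔHep libraries did not rank alike for all genes. Gldn, Shc2, Rasal1, Ly6d, Gucy2c and Sdk2 were lowest in ΔHep 1. Shc2, Rasal1, Ly6d and Gucy2c were highest in ΔHep 3, and Gldn and Sdk2 in ΔHep 2. Myo5c and Pydc4 were instead highest in ΔHep 1. The highest over the lowest ΔHep library was 1.95-fold for Rasal1 and for Sdk2, 1.99-fold for Myo5c, 2.65-fold for Pydc4, 2.72-fold for Gldn, 3.41-fold for Ly6d and 3.80-fold for Shc2.

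The relatives and partners of each gene mostly did not pass the test. Across 9 pathway lists and 14 lists of cell markers, 202 listed genes other than the 8 were tested. Of these, 24 (11.9%) were called higher and 0 lower by edgeR, against 1.51% and 0.165% of all genes. The lists were chosen with earlier results of these data known, so the larger share is a description. It also pools cell markers with relatives and partners. Most calls were in marker lists: 7 stellate and fibroblast, 6 ductal, 4 macrophage, 1 endothelial and 1 plasmacytoid dendritic. In the pathway lists, 3 interferon-induced genes, 1 class V myosin list gene and 1 PYHIN list gene were called. These counts lean on single libraries. The number of listed genes called was 0 without F/F 1, 0 without F/F 2, 62 without F/F 3, 1 without ΔHep 2 and 1 without ΔHep 3. With library totals in place of TMM it was 43, with DESeq2 66, of which 3 were lower, and with limma-voom 7. Every call named in the next paragraphs is subject to these counts. Over all genes, the 244 calls became 2, 1, 1246, 4 and 5 in those 5 fits, so calls outside the lists lean on the same libraries. Over all genes, 2054 were higher and 1015 lower at an unadjusted p under 0.05.

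For Gldn, 0 of 16 tested genes among its partners and the other olfactomedin genes were called by edgeR, with 5 higher and 1 lower at an unadjusted p under 0.05, 2 called by DESeq2 and 0 by limma-voom. The median log2 change of the 16 was 0.54. Its axonal partners were barely covered: Nrcam had 1, 0 and 0 counts in F/F and 0, 9 and 1 in ΔHep. Nfasc, encoding neurofascin, was at 0.357 ± 0.103 and 0.605 ± 0.314 CPM (SD, n = 3), with overlapping groups.

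Among Shc adaptors and their partners, 0 of 10 tested genes were called by edgeR, with 1 higher and 0 lower at an unadjusted p under 0.05 and 0 called by DESeq2 or limma-voom. Shc1, the widely expressed paralog, was at 62.2 ± 5.46 CPM in the F/F libraries and 60.0 ± 4.08 CPM in ΔHep (SD, n = 3). Among Ras and its GTPase-activating proteins, 0 of 16 were called by edgeR, with 4 higher and 0 lower at an unadjusted p under 0.05, 2 by DESeq2 and 0 by limma-voom. Rasal2 was at 26.3 ± 7.45 and 30.9 ± 2.74 CPM (SD, n = 3) with overlapping groups. Rasal3, the paralog of blood cells, had a log2 change of 1.89 (SE 0.41) and an edgeR adjusted p of 0.0604.

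In the Ly6 and uPAR family, 0 of 9 tested genes were called by edgeR, although 7 were higher and 1 lower at an unadjusted p under 0.05 and DESeq2 called 4, limma-voom 0. Their median log2 fold change was 1.16. For Gucy2c, 0 of 10 tested cyclases, ligands and cyclic GMP effectors were called by edgeR, with 2 higher and 1 lower at an unadjusted p under 0.05, 1 called by DESeq2 and 0 by limma-voom. Neither of its peptide ligands, guanylin (Guca2a) and uroguanylin (Guca2b), has a row in the table used here, and they were not analysed. Cftr, the chloride channel downstream of Gucy2c in the intestine, had 1, 0 and 1 counts in F/F and 9, 9 and 10 in ΔHep, too few to be tested.

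Sdk1, the only close paralog of Sdk2, had 1, 3 and 2 counts in F/F and 13, 12 and 43 in ΔHep. The log2 fold change was 3.13 (SE 0.73), as large as that of Sdk2, and the groups did not overlap, but the edgeR adjusted p was 0.0672. Of 6 tested sidekick relatives and MAGI scaffolds, 0 were called by edgeR, with 2 higher and 1 lower at an unadjusted p under 0.05, 2 called by DESeq2 and 0 by limma-voom.

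Of the class V myosins, Myo5a, which carries melanosomes and other cargo, also rose. It was at 0.900, 1.03 and 0.968 CPM in the F/F libraries and at 2.99, 3.77 and 3.70 CPM in ΔHep, with a log2 change of 1.85 (SE 0.26, adjusted p in edgeR of 0.0329). Myo5b, the paralog of recycling endosomes, was much more abundant and had a log2 change of 0.19 (SE 0.12, adjusted p = 0.416). Myo5a was the only 1 of 18 tested genes of its list called by edgeR. Its call was lost without F/F 1, F/F 2, ΔHep 2 or ΔHep 3.

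The PYHIN genes leaned one way. All 10 tested genes of the PYHIN and inflammasome list had a positive fold change, with a median log2 of 1.16, and 8 were higher at an unadjusted p under 0.05. Pydc3 (now Ifi208) was the single gene called by edgeR, at 0.595 ± 0.113 and 3.03 ± 1.17 CPM (SD, n = 3), with a log2 change of 2.34 (SE 0.39, adjusted p = 0.0366). DESeq2 called 7 and limma-voom 0, and the edgeR call of Pydc3 was lost without F/F 1, F/F 2, ΔHep 2 or ΔHep 3. All 14 interferon-induced genes listed also had a positive fold change, and 3 rose by edgeR: Ifi44 (log2 1.81), Oasl2 (1.67) and Ifit3 (1.05). Summed, the 14 were at 290 to 348 CPM in the F/F libraries and 403 to 571 CPM in ΔHep. They ranked the ΔHep libraries in the same order as Pydc4, although few orders are possible with 3 libraries.

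To describe which cell could hold a transcript, marker genes of cells known to express it were taken as summed levels. Rasal1 was given no cell type of its own. Markers of several cell types besides hepatocytes were detected in every library, and some were called higher in ΔHep. Macrophage markers summed to 181 to 472 CPM in the F/F libraries and 447 to 567 CPM in ΔHep, so the sums of the groups overlapped. Of these markers 4 of 12 were called higher, among them Gpnmb (log2 3.43) and Cx3cr1 (2.62). Clec4f (0.54), Vsig4 (0.50), Adgre1 (0.85), Csf1r (0.87) and Marco (0.93) were not called and had overlapping groups. Cd68, Lyz2 and Itgam were not called either, but their groups did not overlap. Markers of stellate cells and fibroblasts summed to 284 to 416 CPM in the F/F libraries and 590 to 850 CPM in ΔHep, with 7 of 12 called higher, among them Lum (1.49), Col6a3 (1.98) and Col1a2 (1.62). Endothelial markers summed to 267 to 444 CPM and 473 to 559 CPM, with Eng (0.73) called among 9. Of the hepatocyte markers, 0 of 8 were called by edgeR, and 0 passed an unadjusted p under 0.05 or were called by DESeq2 or limma-voom. The part of any of these cells in the levels of the 8 genes was not tested.

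Markers of Schwann cells, the known source of gliomedin, were sparse. Sox10, Cdh19, Gfra3, Foxd3 and Sox2 were not analysed here for want of a row. Of the 4 tested markers, 0 were called by edgeR, with 2 higher and 0 lower at an unadjusted p under 0.05, 1 called by DESeq2 and 0 by limma-voom. The markers with a row, 7 of 12, summed to 1.91 to 2.87 CPM in the F/F libraries and 3.72 to 5.30 CPM in ΔHep. Mbp alone made up 40.4% of the sum in F/F and 56.2% in ΔHep. Gldn as a percentage of that sum went from 10.8% to 420%, a 38.8-fold difference.

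Neuronal markers, relevant to Shc2 and Sdk2, had a row for 6 of 12 genes and summed to 8.07 to 17.5 CPM in the F/F libraries and 14.6 to 22.4 CPM in ΔHep. Of the 3 tested, 0 were called by edgeR, 0 passed an unadjusted p under 0.05 and 0 were called by DESeq2 or limma-voom. Syt1 alone made up 93.6% of the sum in F/F and 93.2% in ΔHep, so the sum stands for little else. Relative to it, Shc2 was 52.6-fold and Sdk2 6.07-fold higher in ΔHep.

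For Ly6d, the B cell list held 7 tested genes, of which 0 were called by edgeR, with 5 higher and 0 lower at an unadjusted p under 0.05, 1 called by DESeq2 and 0 by limma-voom. Its sum was 3.34 to 7.42 CPM in the F/F libraries and 9.15 to 22.9 CPM in ΔHep, where ΔHep 3 stood well above the other libraries at 9.15 and 10.7 CPM. The sum ranked the ΔHep libraries in the same order as Ly6d, from ΔHep 1 to ΔHep 3. Shc2, Rasal1 and Gucy2c shared that order, so it is not particular to Ly6d. Ly6d was 9.89% of the B cell sum in F/F and 61.6% in ΔHep, 6.23-fold higher. None of the 8 squamous and basal markers, such as Krt5, Krt14 and Trp63, has a row in the table used here. Plasmacytoid dendritic cells, which share precursors with Ly6d-positive lymphoid cells, had 1 of 4 tested markers called, Runx2 (log2 2.47), with sums of 24.2 to 28.8 CPM and 30.1 to 37.6 CPM that were 96.3% and 91.0% Tcf4.

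Gucy2c was set beside intestinal epithelium, of which 6 of 13 markers have a row. Cdx1, Guca2a, Guca2b, Muc2, Slc26a3, Olfm4 and Gpa33 were not analysed here. Cdx2, the intestinal transcription factor, had 0 counts in each F/F library and 4, 6 and 0 in ΔHep. The intestinal cadherin Cdh17 had 0 in each F/F library and 3, 48 and 2 in ΔHep. Vil1 had 7, 18 and 1 counts in F/F and 29, 9 and 9 in ΔHep, with overlapping groups. The tested markers Fabp2 (log2 -0.10), Lgr5 (0.09) and Tff3 (1.70) also had overlapping groups. Of 3 tested markers 0 were called by edgeR, with 1 higher and 0 lower at an unadjusted p under 0.05, 1 called by DESeq2 and 0 by limma-voom. The sum was 45.9 to 54.7 CPM in the F/F libraries and 48.2 to 84.1 CPM in ΔHep, and relative to it Gucy2c was 11.8-fold higher. Fabp2, a fatty acid carrier of enterocytes, made up 78.8% of the sum in F/F and 61.3% in ΔHep, so the ratio is mostly one over Fabp2. Against the T and NK cell sum and the macrophage sum the Gucy2c ratios of the groups overlapped, although the mean ratios were 6.21-fold and 7.47-fold higher in ΔHep.

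Myo5c was set beside ductal and acinar cells. Of 11 tested ductal markers 6 rose by edgeR: Tspan8 (log2 2.90), Krt19 (2.47), Muc1 (2.07), Krt7 (1.95), St14 (1.84) and Bicc1 (1.63). Krt19, a keratin of bile ducts, was at 0.975, 1.62 and 1.00 CPM in the F/F libraries and at 6.34, 10.2 and 3.70 CPM in ΔHep (adjusted p in edgeR of 0.0346). The 14 ductal markers summed to 55.7 to 114 CPM in the F/F libraries and 104 to 188 CPM in ΔHep. The sums of the groups overlapped, and Cldn4, Cftr and Ehf were at 0 in at least 1 library. Spp1 alone made up 58.0% of the sum in F/F and 54.2% in ΔHep. It was at 28.4, 21.5 and 81.5 CPM in F/F 1 to 3, and its groups overlapped. Myo5c was 0.207% of the ductal sum in F/F and 0.876% in ΔHep, 4.23-fold higher, so the ratio is largely one over Spp1. The ductal sum was highest in ΔHep 2, as were Gldn and Sdk2, whereas Myo5c was highest in ΔHep 1. Pancreatic acinar markers had a row for 3 of 9 and summed to 14.0 to 16.2 CPM in F/F against 7.79 to 10.3 CPM in ΔHep, of which Cela1 alone made up 94.6% and 91.2%. Of them 0 were called by edgeR, with 0 higher and 1 lower at an unadjusted p under 0.05, 1 called by DESeq2 and 0 by limma-voom.

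Mesothelial markers summed to 5.31 to 9.52 CPM in the F/F libraries and 6.04 to 12.9 CPM in ΔHep, and 0 of 7 were called by edgeR, with 2 higher and 0 lower at an unadjusted p under 0.05, 2 called by DESeq2 and 0 by limma-voom. T and NK cell markers summed to 6.82 to 10.4 CPM and 12.6 to 28.7 CPM, and 0 of 10 were called by edgeR, with 6 higher and 0 lower at an unadjusted p under 0.05, 2 called by DESeq2 and 0 by limma-voom. Pydc4 over the macrophage sum was 2.46-fold higher in ΔHep, from 0.530% to 1.30%. The macrophage sum ranked the ΔHep libraries in the same order as Pydc4, as did the interferon-induced sum and the sum of the PYHIN list. With 3 libraries few orders are possible, so a shared order does not single out a cell type.

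Set against each of the 13 lists with a row, every one of the 8 genes kept a higher mean ratio in ΔHep, and the lowest mean ratio was that over B cell markers, whose sum was much higher in ΔHep 3 than in the other ΔHep libraries. There it was 24.7-fold for Gldn, 23.3-fold for Shc2, 7.14-fold for Rasal1, 5.02-fold for Gucy2c, 3.63-fold for Sdk2, 3.13-fold for Myo5c and 1.94-fold for Pydc4. The ratio separated the groups in all 13 lists for Gldn, Shc2, Rasal1, Ly6d and Sdk2, in 11 for Gucy2c and Myo5c, and in 10 for Pydc4. Over the B cell sum the groups overlapped for Myo5c and Pydc4. They also overlapped for Myo5c over the T and NK cell sum. For Pydc4 they overlapped over the ductal sum and the stellate and fibroblast sum too. Of 93 tested marker genes, 0 had a higher log2 fold change than Gldn, Shc2, Rasal1, Ly6d or Gucy2c, 1 was above Sdk2, 1 above Myo5c and 8 above Pydc4. These ratios rest on members picked for being high and are given as a description.

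**Figure D3:**
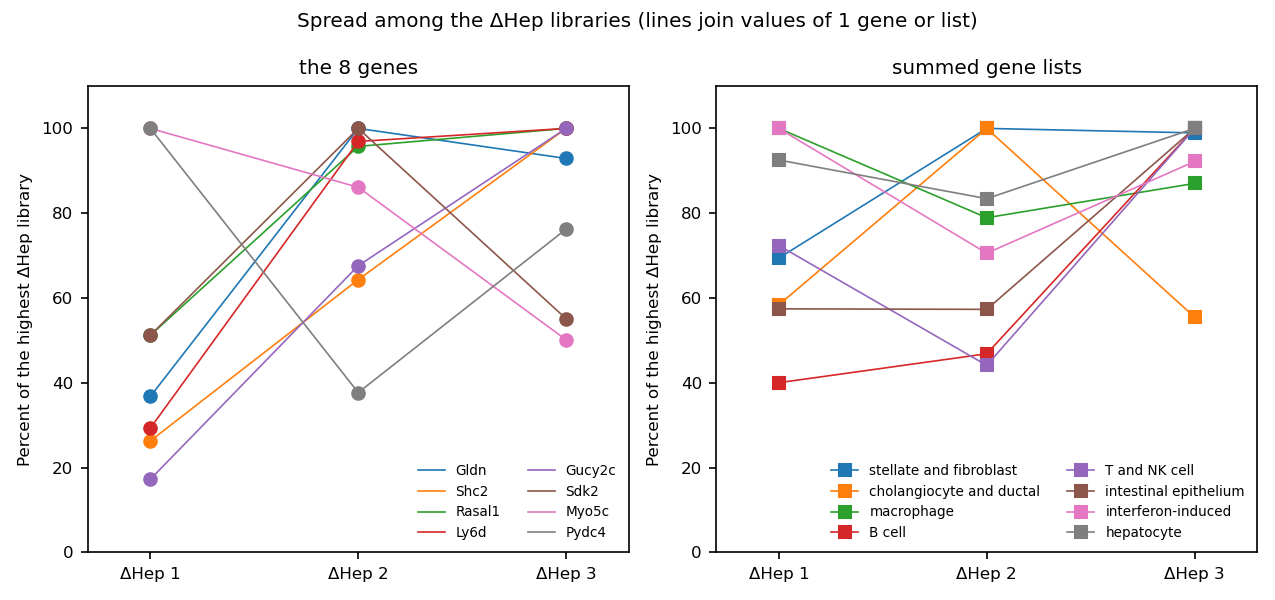
Level in each ΔHep library as a percentage of the highest ΔHep library, for the 8 genes (left) and for the summed CPM of 7 marker lists and of the interferon-induced list (right), with a line joining the values of 1 gene or list. The libraries have no order, and the lines show that 6 genes were lowest in ΔHep 1 while Myo5c and Pydc4 were highest there, and that the list sums also rank the libraries differently.

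The neighbours of the 8 genes on the chromosome differed less between the groups than the 8 did, as follows from how the 8 were chosen. The closest protein-coding gene with a row was taken on each side, 16 in all, of which 14 were tested and 1, Myo5a, was called. Myo5a lies 8332 bases from Myo5c, and the gene on the other side, Gnb5 at 837 bases, had a log2 change of 0.51 (adjusted p = 0.559). The neighbours of Gucy2c, Plbd1 (-0.08) and H2afj (0.04), and of Sdk2, Cdc42ep4 (-0.08) and the distant Rpl38 (0.10, at 601478 bases), were close to 0 on the log2 scale. So were Dmxl2 beside Gldn (0.18), Tpgs1 beside Shc2 (-0.04) and Ddx54 beside Rasal1 (0.02). Tnfaip8l3 beside Gldn and C2cd4c beside Shc2 were too low to be tested.

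Larger values stood beside Rasal1, Ly6d and Pydc4, none of them called. Dtx1, 605 bases from Rasal1, had a log2 change of 1.75 (SE 0.68, adjusted p = 0.196). Among genes with a row, Ly6d lies between its relatives Lynx1 (1.67, SE 0.43, adjusted p = 0.0813) and Ly6e (0.94, SE 0.28, adjusted p = 0.115). Lynx1 is 9010 bases and Ly6e 191431 bases away. Ly6e was abundant, at 243 ± 108 and 464 ± 64.8 CPM (SD, n = 3), and its groups did not overlap. Pydc4 lies between Aim2 (0.99, SE 0.50, adjusted p = 0.296), the cytosolic DNA sensor, and Pyhin1 (1.92, SE 0.40, adjusted p = 0.0575). Within 500 kb of any of the 8, 3 of 96 tested genes (3.12%) were called higher and 0 lower by edgeR, namely Oas3 near Rasal1, Myo5a and Pydc3.

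**Figure D4:**
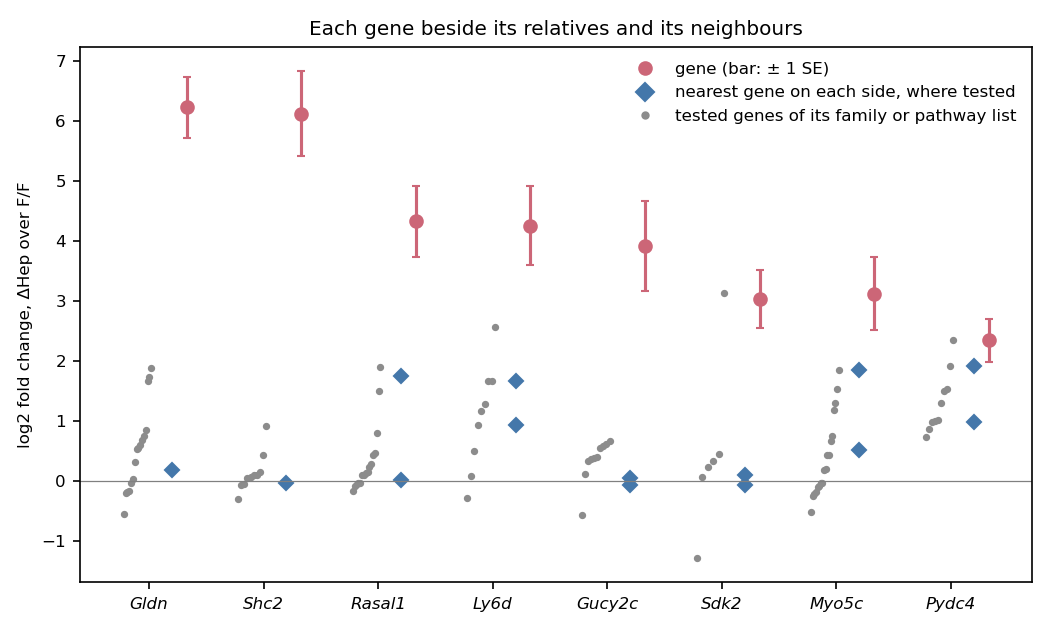
Log2 fold change of ΔHep over F/F for each of the 8 genes (bar, ± 1 SE), for the other tested genes of its pathway list and for those of its nearest neighbours that were tested. The interferon-induced list is not drawn. The 8 genes stand above nearly all their relatives, as follows from how they were chosen. Sdk1 (3.13) is level with Sdk2 (3.03), and Pydc3 (2.34) with Pydc4 (2.35). The neighbours lie between -0.08 and 1.92.

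The genes most like each member were taken by Pearson's r of log2(CPM + 0.5) over the 6 libraries. Because a gene that separates the groups correlates with any other that does, r describes likeness only. Cdc20, which activates the anaphase-promoting complex in mitosis, was among the 3 most like genes of both Gldn (r = 0.997) and Rasal1 (0.996), and rose from 0.563 to 2.87 CPM (adjusted p in edgeR of 0.0329). Cd63, a tetraspanin of late endosomes and exosomes, was among those of Shc2 (0.997) and Rasal1 (0.995), and rose from 4.32 to 17.0 CPM (adjusted p = 0.0329). Basp1 (0.998) and Bmp8b (0.995) completed the genes of Gldn, Pydc3 (0.996) and Sema3g (0.994) those of Shc2, and Gpx8 (0.995) those of Rasal1.

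Sdk2 was most like Npnt (0.9998), which encodes the matrix protein nephronectin, then Bicc1 (0.997) and Abcc1 (0.996). Ly6d was most like 9930014A18Rik (0.997), Fam76b (0.997) and Smox (0.993), none of them called. Gucy2c was most like Mapk11 (0.992), Inip (0.991) and Ccr2 (0.990), the last a chemokine receptor of monocytes that rose from 1.13 to 5.26 CPM (adjusted p in edgeR of 0.0383). Myo5c was most like Hlx (0.994), Cd69 (0.990) and Nol4l (0.986), none of them called. Pydc4 was most like Mfap2 (0.998), Il18rap (0.995) and Serpinb6b (0.994), of which Mfap2 rose from 0.0348 to 0.573 CPM (adjusted p = 0.0390). Of these 24 places, 8 were lost with a pseudocount of 0.1 in place of 0.5.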

How the data were processed

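The authors deposited raw counts per gene for 6 libraries, mapped to mm10 with HISAT2 2.0.4 per the submitters' processing notes. How reads were assigned to genes (program, annotation, strand, filters) is not given in the sources used here. Groups came from the labels, and count columns were matched to samples by name. Totals were 27772849 to 35894395 counts a library.

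Counts were fitted with edgeR 4.0.16 in R 4.3.3 by its quasi-likelihood test, with TMM scaling, genes filtered at a minimum count of 10 and total of 15, and Benjamini-Hochberg adjusted p-values over all 14552 genes with a threshold of 0.05. CPM use TMM-scaled totals. The biological coefficient of variation was 21.5%. The fit was tested on simulated data. Alternatives were other scalings, no filter, DESeq2 1.42.0, limma-voom 3.58.1, a replicate block and leaving out each library. Gene positions and exon lengths came from a mm10 annotation, and promoters and current symbols from RefSeq.

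The 8 genes and all lists were chosen with earlier results of these data known. The text names the 8, Ripply1, the 3 most correlated genes of each, the nearest gene with a row on each side, up to 4 called genes with the lowest p and the closest paralogs from each list, and the 3 genes on each side of the 0.5 CPM limit. Listed genes named with counts outside that rule (such as Cdh17, Cdx2, Nrcam, Nfasc, Cftr, Krt7 and Muc1) were chosen after their values were seen. Some genes that the rule selects are not reported here.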

Additional observations from a re-analysis of the deposited data

How the results depend on the processing

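All 8 genes had a positive fold change in each of the 13 fits, with log2 values from 5.97 to 6.64 for Gldn, 5.63 to 6.57 for Shc2, 3.99 to 4.63 for Rasal1, 3.86 to 5.25 for Ly6d, 3.38 to 4.39 for Gucy2c, 2.66 to 3.64 for Sdk2, 2.70 to 3.85 for Myo5c and 2.03 to 2.65 for Pydc4. Counts of called genes depended on the setting. Over all genes 244 were called, against 644 with library totals, 1304 with DESeq2, 88 with limma-voom and 1 to 1246 with 1 library left out. The count was 2 without F/F 1, 1 without F/F 2, 1246 without F/F 3, 4 without ΔHep 2 and 5 without ΔHep 3. Of listed genes 24 were called, against 43 with library totals, 66 with DESeq2, 7 with limma-voom and 0 to 62 with 1 library left out. Among 65 named genes outside the 8, each under 12 alternatives, none reversed its direction, a call was lost 184 times and a call was gained 24 times. The cause was not tested. Levels of a few counts in F/F, as for Shc2, Rasal1 and Myo5c, limit how well a fold is known.

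Replicate numbers gave no clear sign of pairing: deviations of same-numbered libraries correlated at 0.146, -0.0791 and -0.0241. Differently numbered libraries of the 2 groups correlated at -0.125 to 0.152. So few values cannot exclude pairing. With the number as a replicate block, 236 genes were called over all and 22 of the listed genes. Under the block, called genes went from 8 to 5 among the 8, from 6 to 3 among ductal markers, from 4 to 2 among macrophage markers and from 1 to 0 among plasmacytoid dendritic cell markers.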
